A study of Mus musculus with 8 samples.

Results

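The synaptic vesicle release machinery was followed as 36 genes, chosen by name as SNARE, synaptotagmin, active zone and vesicle proteins, among the 37310 genes counted in the hippocampus of Nr2f1 heterozygous and wild-type (WT) mice. All 36 were found in the table by Ensembl identifier and all 36 passed the filter on low counts, so none was left out. The study has 8 libraries, each from the hippocampus of 1 animal: 4 from mice labelled Nr2f1 het and 4 from mice labelled WT. Both genotypes shared the rest of their labels, a B6.129 F1 hybrid background, an age of 3 months and male sex, with no treatment. The labels do not say how the Nr2f1 allele was made or in which cells it is disrupted.

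A nerve terminal releases transmitter when a synaptic vesicle, held at the active zone, fuses with the plasma membrane. The fusion is driven by SNARE proteins on the vesicle and on the membrane that zip together, after Munc13 and RIM proteins have made the vesicle ready, and calcium bound by a synaptotagmin triggers it. NSF and its SNAP adaptors then take the SNARE complex apart. In the hippocampus most of these genes are active in all neurons, while some paralogs are known from subsets of neurons. In RNA of whole tissue, fewer neurons and less RNA per neuron cannot be told apart.

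Total gene counts ran from 58717305 to 90043971 per library, and the 36 members took 1404520, 1574763, 1529419 and 1642422 of them in WT libraries 1 to 4, against 1037128, 1407279, 1533155 and 1442533 in heterozygote libraries 1 to 4. Nr2f1, the disrupted gene, was at 53.4, 49.5, 54.1 and 51.6 CPM (read counts scaled to the TMM-normalised library size) across WT libraries against 32.4, 31.0, 33.5 and 28.5 CPM in heterozygote libraries, which follows the labels. Xist was between 463.2 and 601.4 CPM in every library and genes of the Y chromosome had 0 or 1 count in each, which goes against the label of male sex in both genotypes alike. Some markers of tissue next to the hippocampus were higher in heterozygote libraries. All 14 choroid plexus markers had higher CPM in every heterozygote library than in any WT library, with a summed level of 220.1 to 3014 CPM across WT libraries against 5675 to 6548 CPM in heterozygotes; none of the 14 was at 0, 13 had an unadjusted p under 0.05 and 0 passed in edgeR. All 9 ependymal markers were also higher in heterozygotes without overlap (10.6% of all genes tested did not overlap), and 7 passed in edgeR (2.99% of all genes tested). Their sum was 13.8 to 25.9 CPM across WT libraries against 38.6 to 57.5 CPM in heterozygotes. WT libraries 1 and 3 had the lowest choroid plexus levels, so counts are also given without both. The 10 pan-neuronal markers summed to 8157 to 8772 CPM across WT libraries against 7544 to 7973 CPM in heterozygotes. All 10 had a fitted level below WT, and 2 were past the threshold, Snap25 and Rbfox3. Snap25 and Syt1 of this list are also members, at means of 1950 and 1747 CPM in WT, so the sum is in part that of the members. Of 8 astrocyte markers 5 were below WT and 0 passed (median log2 difference -0.018); their sum was 5039 to 5315 CPM across WT libraries against 4682 to 4964 CPM, most of it from Slc1a2. The part of these lists in the members' levels was not tested. The lists of CA1, of CA2 and CA3 and of dentate granule cells summed to at least 782.5, 374.3 and 341.3 CPM in every library.

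The sequences around the members' start sites, most of each window upstream, were searched for AGGTCA, the core site that COUP-TF receptors such as Nr2f1 are known to bind, because Nr2f1 is the gene disrupted here. RefSeq windows of 300 bases (build GRCm38.p6) were at hand for 30 of the 36 members, with 37 windows in all; Snap25 and Vamp2 were not among them. AGGTCA on either strand was found in 4 windows, or 10.8%, against 12.8% of the windows of genes tested and 16.3% of all windows. A direct repeat of the site with 1 base between, on either strand, was found in 0 member windows and in 0.0444% of those of genes tested. A match is a description of letters and not a bound site. The 4 windows with a match are shown because they are all that the search found, with that site in capitals, as AGGTCA or, read on the other strand, TGACCT. Its first base lay at position -156 from the start site in Syt1, the main calcium sensor of fast release, at -167 in Syt2, at -222 in Cplx3 and at -186 in Erc2; Syt1 and Syt2 each have a second window without it.
Syt1, chr10:109009062-109009361, minus strand: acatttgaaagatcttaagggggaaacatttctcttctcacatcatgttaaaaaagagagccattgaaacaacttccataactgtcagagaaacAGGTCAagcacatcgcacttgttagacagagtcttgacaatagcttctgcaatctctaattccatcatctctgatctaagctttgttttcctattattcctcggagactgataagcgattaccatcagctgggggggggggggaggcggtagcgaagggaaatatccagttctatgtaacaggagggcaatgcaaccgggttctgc
Syt2, chr1:134646362-134646661, plus strand: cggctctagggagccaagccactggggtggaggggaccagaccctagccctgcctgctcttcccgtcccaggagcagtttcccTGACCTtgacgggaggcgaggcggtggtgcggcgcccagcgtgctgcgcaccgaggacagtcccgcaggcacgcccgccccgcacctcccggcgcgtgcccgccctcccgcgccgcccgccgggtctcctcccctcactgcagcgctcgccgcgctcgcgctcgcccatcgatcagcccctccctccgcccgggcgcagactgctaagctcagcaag
Cplx3, chr9:57606232-57606531, minus strand: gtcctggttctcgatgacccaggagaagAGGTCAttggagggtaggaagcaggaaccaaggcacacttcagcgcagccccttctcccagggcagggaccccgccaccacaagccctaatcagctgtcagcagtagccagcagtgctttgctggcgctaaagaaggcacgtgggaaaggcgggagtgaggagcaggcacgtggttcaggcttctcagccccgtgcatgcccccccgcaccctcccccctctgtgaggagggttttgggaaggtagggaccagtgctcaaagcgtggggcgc
Erc2, chr14:27622157-27622456, plus strand: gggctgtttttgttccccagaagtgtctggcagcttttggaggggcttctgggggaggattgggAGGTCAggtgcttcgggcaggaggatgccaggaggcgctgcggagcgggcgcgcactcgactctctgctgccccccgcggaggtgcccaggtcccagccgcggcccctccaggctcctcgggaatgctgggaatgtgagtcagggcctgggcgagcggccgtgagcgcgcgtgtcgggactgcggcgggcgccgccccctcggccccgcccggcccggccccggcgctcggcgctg

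Of the 36 members, 1 passed the test between genotypes and 34 had a lower fitted level in heterozygotes. Snap25, the membrane SNARE of the release site, fell to 0.873 of WT; every other member missed the threshold. The median log2 fold change of the members was -0.079, with the middle quartiles between -0.11 and -0.054, while the median over all 17913 genes tested was -0.0056. The test called 2.99% of all genes, 2.62% higher and 0.368% lower. Taking both directions together, 1 of 36 (2.78%) is near the background. The 1 call was lower, and 1 gene is too few to set against the share called lower. At an unadjusted p under 0.05 in edgeR there were 11 members, 10 lower and 1 higher, where 17.2% of all genes were at that level, 10.0% higher and 7.11% lower. With spike-in scaling 1 member was at that level, against 22.2% of all genes. A fitted difference below 0 was seen for 52.1% of all genes and for 94.4% of the members. Members were chosen with earlier results of these data known, so these counts describe the list and do not test it.

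**Figure D1:**
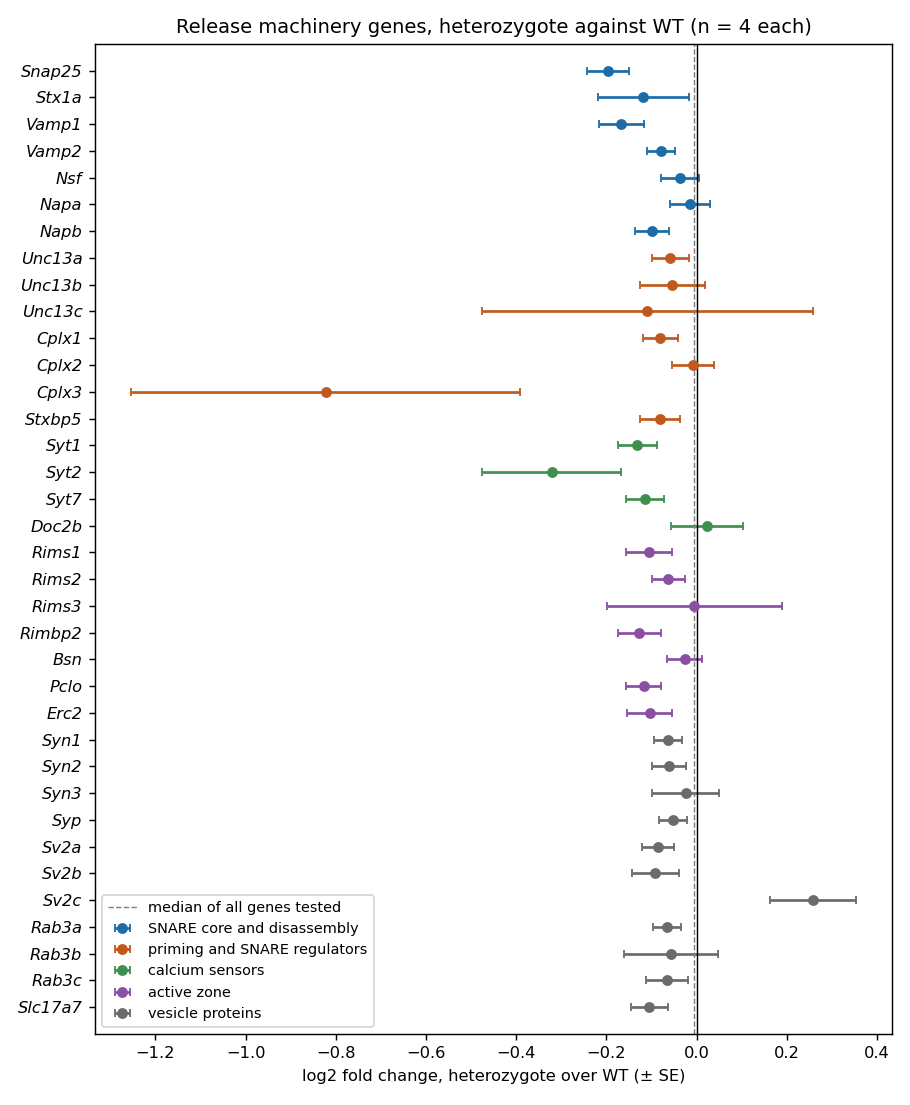
Log2 fold change of heterozygote over WT for each of the 36 members, with its standard error, coloured by role; the dashed line is the median of all genes tested. With TMM scaling all points but Doc2b and Sv2c lie below 0 (13 of 36 with spike-in scaling), and the widest bars belong to Cplx3 and Unc13c.

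For most members the fitted difference was small, and its sign depended on how libraries were scaled. As a share of raw gene counts, with no further scaling, the members made up 1.84%, 1.81%, 1.89% and 1.82% of WT libraries 1 to 4, against 1.77%, 1.79%, 1.73% and 1.78% of heterozygote libraries 1 to 4. No heterozygote library reached the lowest WT share. The median member stood at 0.009, -0.011, 0.038 and -0.002 on the log2 scale in WT libraries 1 to 4, relative to the WT mean of each gene, as against -0.089, -0.047, -0.093 and -0.069 in heterozygote libraries 1 to 4, again without overlap. When libraries were scaled to their spike-in RNA, synthetic transcripts added in known amount, the median of the members turned to 0.020 and that of all genes moved up to 0.091. Relative to all genes the members then stood at -0.071, close to the -0.074 of TMM scaling. With spike-in scaling 13 of 36 members were below 0. Spike-in reads were only 0.0431% to 0.0787% of the counts of a library. The direction of single members named below as lower is therefore a direction relative to other genes of the library.

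**Figure D2:**
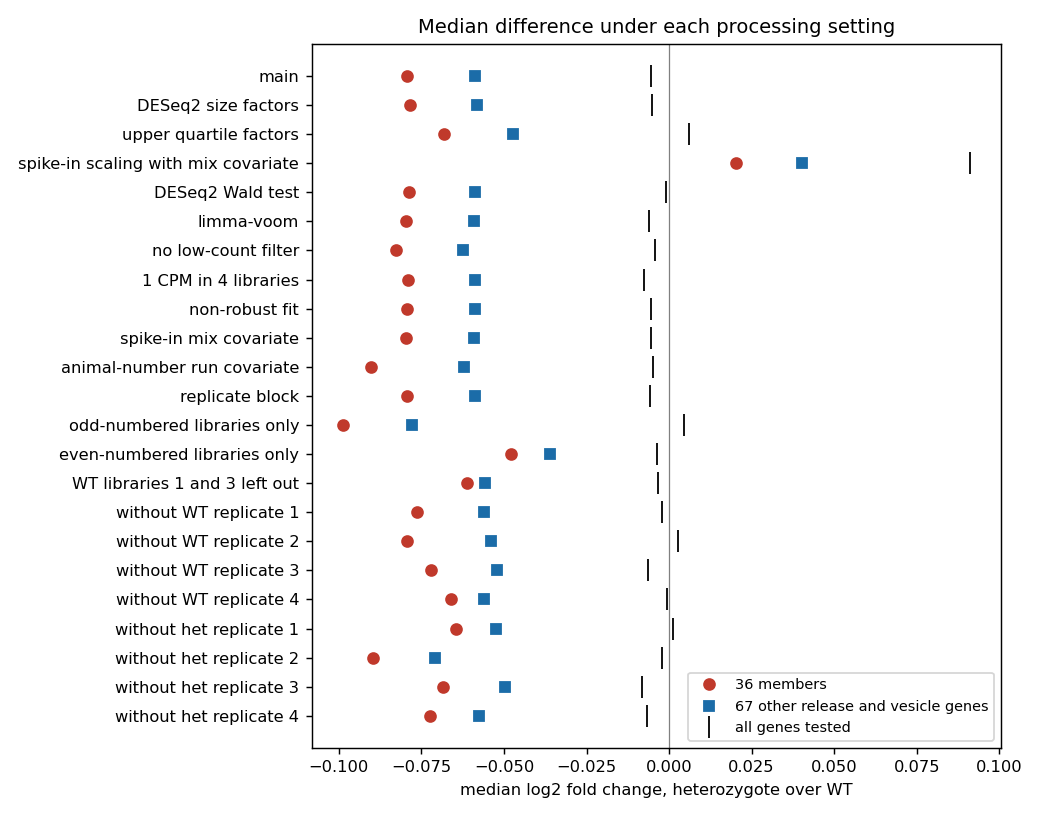
Median log2 fold change, heterozygote over WT, of the 36 members (circles), the 67 other release and vesicle genes (squares) and all genes tested (bars) under each setting of the processing. The members lie to the left of all genes in every setting, at -0.044 to -0.10 relative to them, and above 0 with spike-in scaling alone.

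Among the SNARE proteins and the enzymes that recycle them, all 7 genes had a fitted level below WT and 4 had an unadjusted p under 0.05. Over all genes tested 52.1% were fitted below 0 and 17.2% had an unadjusted edgeR p under 0.05. Snap25 was at 1965, 1846, 2000.2 and 1989 CPM across WT libraries 1 to 4, against 1728, 1793, 1549 and 1739 CPM in heterozygote libraries 1 to 4. The heterozygote libraries all lay below the lowest WT library, and library 3 was the lowest. The fitted log2 difference, -0.20 ± 0.0462 (SE), passed the test with an edgeR adjusted p of 0.0419. This call was close to its threshold: it was lost on leaving out WT library 1, 3 or 4 or heterozygote library 1, 3 or 4 (edgeR adjusted p = 0.121, 0.130, 0.0775, 0.0854, 0.0594 and 0.0802 in that order), without WT libraries 1 and 3 together (0.332) and with spike-in scaling (log2 fold change -0.095, adjusted p = 0.431). The non-robust edgeR fit (adjusted p = 0.0516), a covariate for the run of animal numbers (0.0816) and a block by replicate number (0.112) ended it as well. The labels name spike-in mix 1 or 2 without saying which library got which; the read ratio of the spike-ins ERCC-00130 and ERCC-00002 was 1.2 to 1.28 in odd-numbered libraries and 0.165 to 0.186 in even-numbered ones, and the mix was taken from that. Within odd-numbered libraries the log2 fold change of Snap25 came to -0.27 (edgeR adjusted p = 0.0708), against -0.12 (0.60) for the even-numbered ones. The odd-numbered WT libraries 1 and 3 also had the lowest choroid plexus levels, so mix and that level cannot be told apart in WT.

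Vamp2, the main vesicle SNARE of forebrain synapses, was at 1123, 1147, 1180.4 and 1168 CPM across WT libraries against 1068, 1121, 1079 and 1107 CPM in heterozygote libraries. The genotypes did not overlap, by a margin of a few CPM, and the log2 fold change of -0.078 ± 0.0317 (SE) did not pass (edgeR adjusted p = 0.220). Its paralog Vamp1 was at 137, 152, 158 and 152 CPM across WT libraries against 137, 138, 123 and 136 CPM in heterozygote libraries. WT library 1 sat among the heterozygotes, and the log2 fold change of -0.17 ± 0.0495 (SE) missed the threshold in edgeR (adjusted p = 0.0939) and passed in the DESeq2 Wald test (adjusted p = 0.0499). The ratio of Vamp1 to Vamp2 reads, which does not depend on scaling, lay between 0.122 and 0.134 in WT, against 0.114 to 0.128 in heterozygotes. Napb, the brain form of the SNAP adaptor, was at 0.934 of WT (edgeR adjusted p = 0.197), whereas the widely expressed Napa was at 0.990 and the ATPase gene Nsf at 0.975. Stx1a, the syntaxin partner of Snap25, was the most uneven gene of the group, at 84.6, 101, 115 and 84.6 CPM in heterozygote libraries against 96.7 to 113 CPM in WT.

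The 7 genes that prime vesicles or hold the SNARE complex had no call and no unadjusted p under 0.05, with folds below 1 in each (52.1% of all genes tested). Cplx2, the main complexin of hippocampal principal cells, was at 1778, 1803, 1812 and 1641 CPM across WT libraries against 1746, 1619, 1778 and 1852 CPM in heterozygote libraries. The ranges overlapped almost fully, with a log2 fold change of -0.0079 ± 0.0458 (SE; edgeR adjusted p = 0.956). Cplx1 was at 0.946 of WT (edgeR adjusted p = 0.329). Of the Munc13 priming factors, Unc13a was at 0.961 and Unc13b at 0.963 of WT, and Stxbp5, the tomosyn that competes for SNAREs, was at 0.945. Across the groups outside the SNAREs, 0 of 29 members passed in edgeR, DESeq2 or limma-voom. Over all genes, edgeR called 535 of 17913 (2.99%), limma-voom 562 of 17913 and DESeq2 1185 of 27028. An unadjusted edgeR p under 0.05 was seen for 7 of the 29, and for 17.2% of all genes tested.

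Of the 4 calcium sensors none passed in edgeR (2.99% of all genes tested), and 2 had an unadjusted p under 0.05 (17.2% of all genes tested). Syt1, the fast sensor, was at 1750.2, 1661, 1831 and 1745 CPM across WT libraries against 1611, 1644, 1478 and 1646 CPM in heterozygote libraries. Every heterozygote library was below every WT library, most of all library 3. The log2 fold change of -0.13 ± 0.0427 (SE) did not pass (edgeR adjusted p = 0.123). Syt7, a slow sensor linked to asynchronous release and facilitation, was at 434, 416, 412 and 390.2 CPM across WT libraries against 364, 380.1, 407 and 375 CPM in heterozygote libraries. Heterozygote library 3 lay within the WT range, and the fold was 0.924 (edgeR adjusted p = 0.177). Doc2b, a high-affinity sensor implicated in spontaneous release, was 1 of the 2 members with a fitted value above 0, at a log2 fold change of 0.023 ± 0.0800 (SE; edgeR adjusted p = 0.921). It was at 122, 123, 132 and 111 CPM across WT libraries against 138, 106, 121 and 131 CPM in heterozygotes, which overlapped fully.

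Of the 7 active zone genes none passed in edgeR (2.99% of all genes tested), and 2 had an unadjusted p under 0.05 (17.2% of all genes tested). With TMM scaling all 7 were fitted below WT (52.1% of all genes tested). Pclo, the gene of piccolo, was at 316, 296, 328 and 303 CPM across WT libraries against 283, 294, 273 and 296 CPM in heterozygote libraries. The genotypes did not overlap, although WT library 2 and heterozygote library 4 differed by less than 1 CPM, and the log2 fold change was -0.12 ± 0.0397 (SE; edgeR adjusted p = 0.137). Bsn, which encodes the related protein bassoon, had the highest level per kb of exon in the group. Per kb of the longest transcript, Erc2 at 40.1 and Rims1 at 34.4 CPM in WT were above Bsn at 33.3. Bsn was at 536, 503, 569 and 512 CPM across WT libraries against 524, 509.7, 524 and 525 CPM in heterozygote libraries, and its heterozygotes lay inside the WT range. Its log2 fold change was -0.026 ± 0.0393 (SE; edgeR adjusted p = 0.793). The Pclo to Bsn ratio was 0.590, 0.589, 0.576 and 0.592 in WT and 0.540, 0.577, 0.521 and 0.563 in heterozygotes, so that heterozygote library 2 reached the WT range.

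Rimbp2, which ties calcium channels to RIM proteins, was at 139.5, 139, 142 and 126 CPM across WT libraries against 125, 115, 128 and 131 CPM in heterozygote libraries, where WT library 4 fell among the heterozygotes (fold 0.916, edgeR adjusted p = 0.189). The RIM genes Rims1 and Rims2 were at 0.930 and 0.958 of WT and the scaffold gene Erc2 at 0.930, none past the threshold (edgeR adjusted p = 0.318, 0.425 and 0.303).

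Abundant genes of the vesicle itself had slightly lower fitted levels and Sv2c a higher one, with no call among them (2.99% of all genes tested were called). Slc17a7, the vesicular glutamate transporter VGLUT1 of hippocampal principal cells, had the highest level per kb in the group; it was at 1626, 1601, 1677 and 1515 CPM across WT libraries against 1532, 1464, 1425 and 1549.6 CPM in heterozygote libraries. WT library 4 lay within the heterozygote range, and the log2 fold change was -0.10 ± 0.0401 (SE; edgeR adjusted p = 0.195). Syn1, a synapsin that tethers vesicles in the reserve pool, was at 679, 673, 677 and 657 CPM across WT libraries against 641, 656, 618 and 654 CPM in heterozygotes. The groups were separate by about 1 CPM only (log2 fold change -0.064 ± 0.0313 SE, edgeR adjusted p = 0.323). Rab3a, the small GTPase that recruits RIM to vesicles, was at 521, 519.7, 545 and 518 CPM across WT libraries against 499, 516, 489.6 and 506 CPM in heterozygotes, again without overlap (log2 fold change -0.066 ± 0.0316 SE, edgeR adjusted p = 0.313). Folds of the other abundant vesicle genes lay close together, at 0.964 for synaptophysin (Syp), 0.958 for Syn2, 0.955 for Rab3c, 0.943 for Sv2a and 0.939 for Sv2b, and none passed. The low Syn3 and Rab3b were at 0.984 and 0.961 of WT.

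Sv2c, the member of the SV2 vesicle glycoproteins known from the basal ganglia, stood out from the list by its sign. It was at 10.2, 13.1, 11.6 and 12 CPM across WT libraries against 11.6, 16, 14.5 and 13.8 CPM in heterozygote libraries. The ranges overlapped through heterozygote library 1, and the log2 fold change of 0.26 ± 0.0960 (SE) did not pass (edgeR adjusted p = 0.184). With spike-in scaling the log2 fold change of Sv2c was 0.35 and passed (edgeR adjusted p = 0.00712). That scaling called 1368 of 17913 genes higher, against 469 with TMM scaling. The ratio of Sv2c to Sv2a was 0.0192, 0.0236, 0.0212 and 0.0211 in WT and 0.0226, 0.0292, 0.0290 and 0.0266 in heterozygotes. Markers of the striatum were higher in heterozygotes as well: all 11 that were measured had a fitted level above WT, 2 of them past the threshold, with a sum of 203.0 to 219.9 CPM across WT libraries against 221.4 to 338.8 CPM in heterozygotes. The striatal dopamine receptor gene Drd2 was at 2.85, 2.89, 3.94 and 2.86 CPM across WT libraries against 4.37, 4.09, 5.63 and 8.93 CPM in heterozygotes. Isl1 was at no more than 0.104 CPM in WT, against 0.251 to 0.619 CPM in heterozygotes. The rise was not even over the list. Drd1 and Pde10a were at 1.11 and 1.01 of WT, with overlap of the genotypes, and Pde10a, at a mean of 114 CPM in WT, was the largest part of the sum. The part of striatal RNA in the Sv2c level was not tested.

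**Figure D3:**
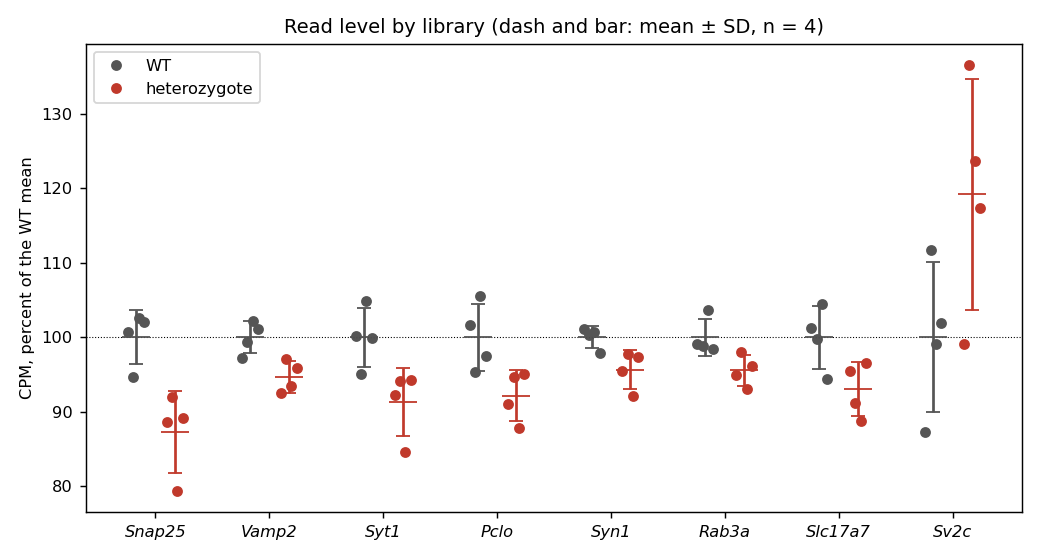
CPM of 8 members in each library as a percent of the WT mean, with mean and SD (n = 4 per genotype). In Snap25, Vamp2, Syt1, Pclo, Syn1 and Rab3a the heterozygote points lie below all WT points, in Slc17a7 the genotypes overlap, and in Sv2c the heterozygotes lie mostly above.

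In all, 6 of 36 members had genotypes that did not overlap, all 6 lower in heterozygotes: Snap25, Vamp2, Syt1, Pclo, Syn1 and Rab3a. With spike-in scaling the fitted values of Vamp2, Syn1 and Rab3a were above 0, at 0.020, 0.036 and 0.034 on the log2 scale, and those of Snap25, Syt1 and Pclo stayed below 0. Over all genes tested 10.6% did not overlap, 6.99% higher and 3.59% lower. The WT means of the 6 ran from 311 CPM for Pclo to 1950 CPM for Snap25, and 27 of the 36 members were at 100 CPM or more. Why these 6 were apart was not tested. The coefficient of variation of the 6, the SD as a percent of the mean, lay between 1.46% and 4.5% in WT and between 2.19% and 6.25% in heterozygotes. Such values were not particular to them: Syp, whose genotypes overlapped, was at 2.44% in WT and 1.28% in heterozygotes. Markers of CA1 pyramidal cells moved the same way: 4 of 5 measured were below WT, 2 past the threshold, with a sum of 932.2 to 960.9 CPM across WT libraries against 782.5 to 866.8 CPM in heterozygotes. The other lists of principal cells were mixed. Of 8 CA2 and CA3 markers 4 were above WT and 4 below, and 1 passed (higher). Of 7 dentate granule markers 3 were above WT and 4 below, and 1 passed (lower). The part of these lists in the members' lower level was not tested. Of 15 interneuron markers, 9 were above WT and 6 below, 1 passed (higher), and 6 were higher and 1 lower without overlap of the genotypes, with sums of 1485 to 1569 CPM across WT libraries against 1544 to 1584 CPM in heterozygotes.

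A few members had a wide spread between animals of the same genotype. The coefficient of variation was under 10% in both genotypes for 27 members and reached it in 9. Cplx3, a complexin known from retina and from deep cortical neurons, had the largest fitted difference of all members and also the largest spread, at 8.02, 10.1, 5.63 and 9.04 CPM across WT libraries against 2.31, 8.89, 4.54 and 2.49 CPM in heterozygotes. Heterozygote library 2 was at the WT level, and the log2 fold change of -0.82 ± 0.431 (SE) did not pass (edgeR adjusted p = 0.400). Unc13c, a Munc13 best known from the cerebellum, was at 24.2, 29.1, 24.2 and 33.2 CPM across WT libraries against 13.6, 28.8, 42.0 and 17 CPM in heterozygotes, so its lowest and its highest library were both heterozygotes.

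Syt2, the fast sensor of hindbrain neurons and of parvalbumin interneurons, was at 32.3, 39.3, 35.8 and 40.8 CPM across WT libraries against 29.3, 38.1, 22.9 and 28.5 CPM in heterozygotes. Pvalb, the marker of those interneurons, was steadier, at 27.4 to 30.8 CPM across WT libraries against 25.4 to 29.1 CPM in heterozygotes. Rims3 spanned 80.5 to 111 CPM in WT, against 72.8 to 119 CPM in heterozygotes, and Rab3b 25.5 to 31.6 against 23.3 to 31.3 CPM. In Cplx3, Syt2, Rims3 and Rab3b heterozygote library 2 was the highest heterozygote, and in Unc13c, Syt2, Rims3 and Rab3b WT library 4 was the highest WT library. Slc17a6, the vesicular transporter VGLUT2 of thalamic and other subcortical neurons, followed that order, at 20.7, 31.8, 22.9 and 33.7 CPM across WT libraries against 16.4, 37.2, 27.3 and 17 CPM in heterozygotes. Thalamic markers, Slc17a6 included, summed to 220.9 to 249.1 CPM across WT libraries against 256.0 to 320.3 CPM in heterozygotes, highest in heterozygote library 3. Of the 10 thalamic markers, Slc17a6 alone was fitted below WT, and the other 9 were above. The part of tissue beside the hippocampus in the 5 genes Cplx3, Unc13c, Syt2, Rims3 and Rab3b was not tested. Without the 5, the median log2 fold change of the remaining 31 members was -0.0785.

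**Figure D4:**
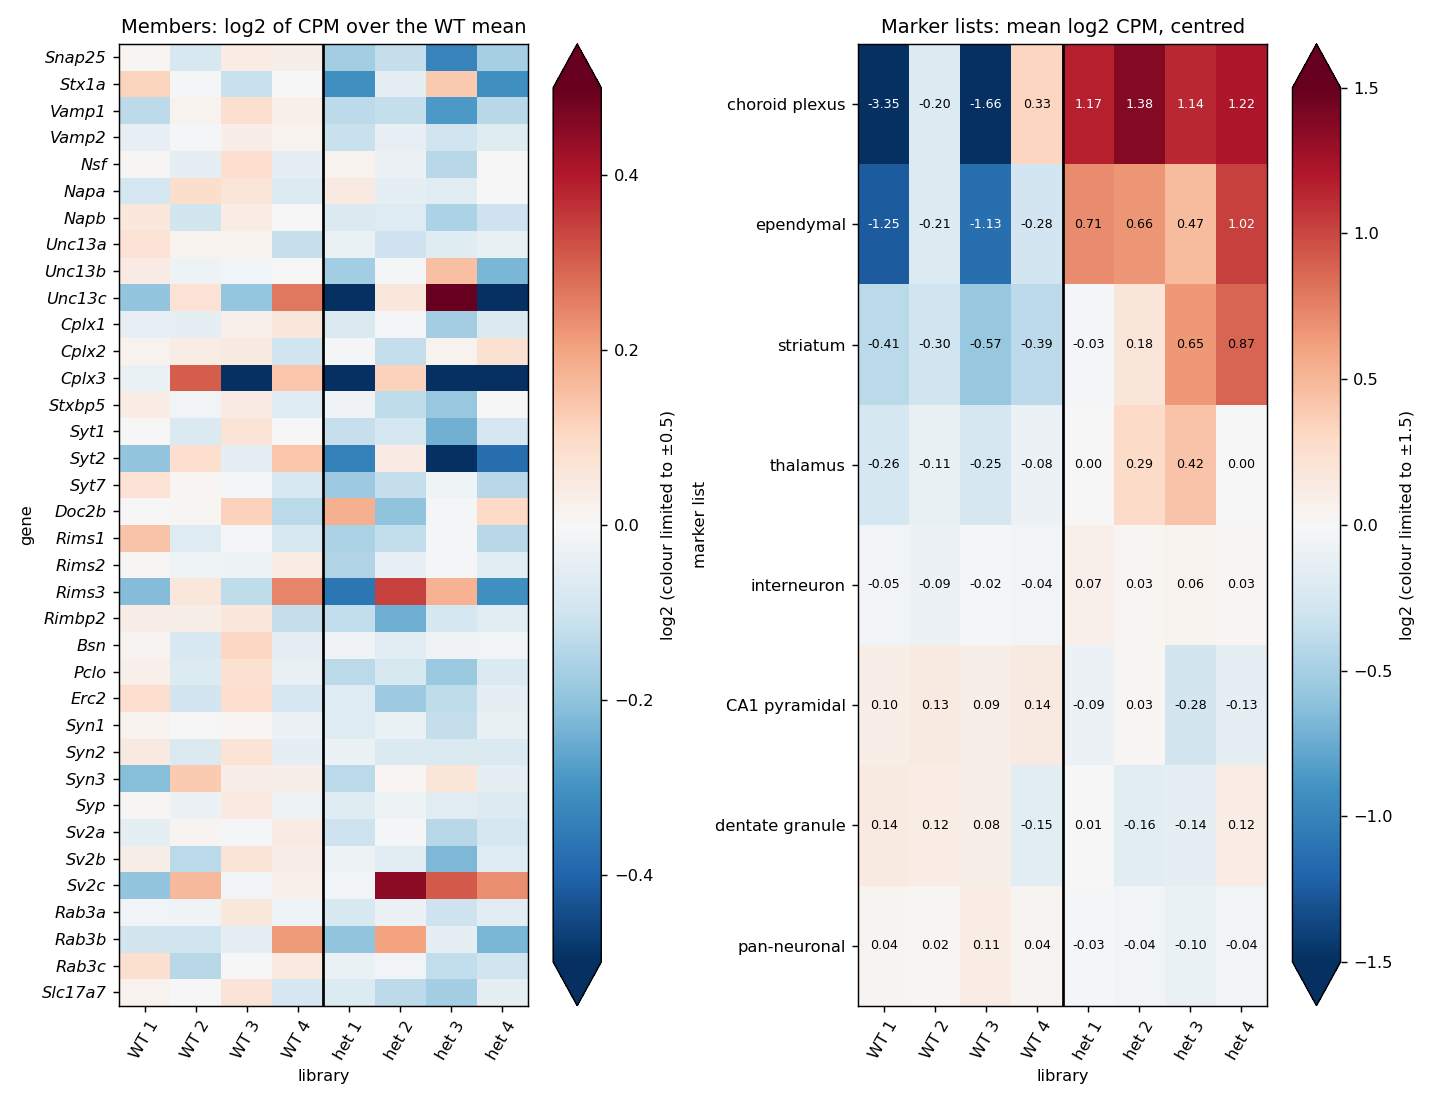
Left, log2 of each member's CPM over its WT mean in each library; right, centred mean log2 CPM of marker lists in the same libraries. Most member rows are pale and slightly blue in the heterozygotes, and Unc13c, Cplx3, Syt2, Rims3 and Sv2c carry the strong colours; choroid plexus scores run from -3.35 in WT library 1 to 1.38 in heterozygote library 2.

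Ratios between related members gave no separation of the genotypes. For 18 pairs fixed by family, the read ratio of the heterozygote libraries overlapped that of the WT libraries in all 18. The ratio of Rab3c to Rab3a was 0.928 ± 0.0647 in WT and 0.927 ± 0.0236 in heterozygotes (SD, n = 4 each), that of Syn2 to Syn1 was 1.18 ± 0.0477 and 1.18 ± 0.0362, and that of Unc13b to Unc13a 0.148 ± 0.00789 and 0.148 ± 0.0197. The widest shifts were in Cplx3 to Cplx2, at 0.00469 ± 0.00117 and 0.00268 ± 0.00196, and in Sv2c to Sv2a, at 0.0212 ± 0.0018 and 0.0269 ± 0.00306. No test was made on the ratios.

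The members spanned a wide range of levels. Per kb of exon in WT, Cplx2 was the highest at 357 ± 16.2 CPM per kb (SD, n = 4), followed by Vamp2 at 303 ± 6.57, Slc17a7 at 298 ± 12.6, Snap25 at 287 ± 10.4 and Cplx1 at 285 ± 9.80 CPM per kb. From Vamp2 to Cplx1, neighbours in this order differed by less than the larger of their SDs. Rab3a, Syt1 and Syn1 followed at 236, 210 and 204 CPM per kb. The active zone scaffolds were lower, from 33.3 CPM per kb for Bsn and 30.1 for Rims1 to 6.27 for Rims2. At the low end stood Unc13c at 3.15, Unc13b and Cplx3 at 2.78 each, Sv2c at 1.21 and Syn3 at 1.02 CPM per kb. With the length of the longest transcript in place of all exons, Vamp2, Slc17a7 and Snap25 led at 524, 521 and 400 CPM per kb and Cplx2 came in rank 5, so the order of the leading genes depends on the length used.

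**Figure D5:**
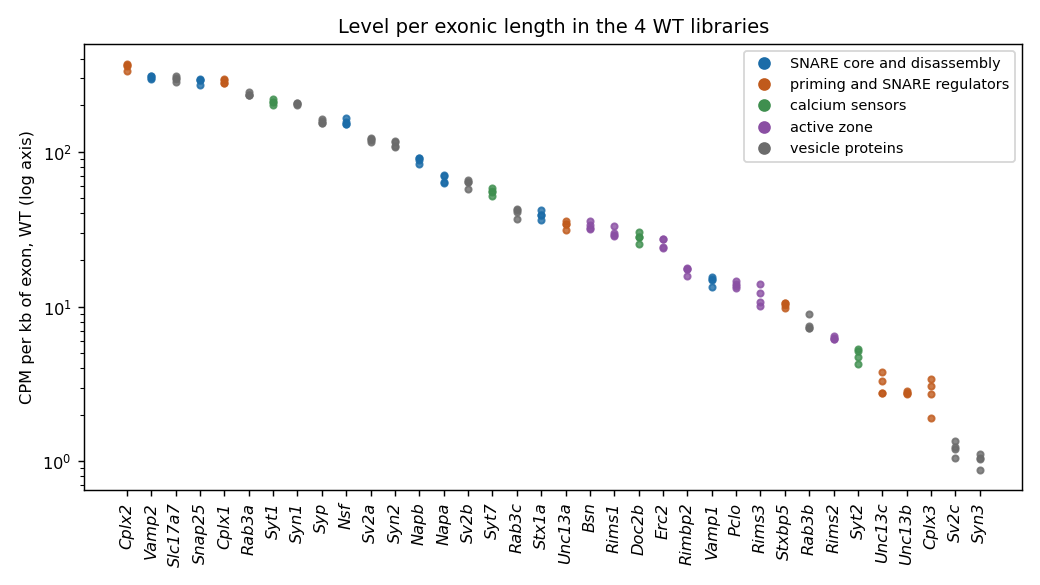
CPM per kb of exon (log axis) of each member in the 4 WT libraries, ordered by mean and coloured by role. Cplx2, Vamp2, Slc17a7, Snap25 and Cplx1 lie at the top, from 285 to 357 CPM per kb, and Syn3 at the bottom near 1 CPM per kb, with little spread between libraries compared with the distance between genes.

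Other genes of the vesicle cycle, 67 of 70 listed and tested, were also mostly below WT. Their median log2 fold change was -0.059, and 53 (79.1%) had a fitted level below WT, against 52.1% of all genes tested. By edgeR 1 passed, 1.49% against the background of 2.99%. An unadjusted p under 0.05 was seen for 21 (31.3%), 19 lower and 2 higher, against 17.2% of all genes. The genotypes did not overlap in 9 (13.4%), 2 higher and 7 lower. Over all genes tested that share was 10.6%, 6.99% higher and 3.59% lower. The gene that passed was Syt9, a synaptotagmin that can act as a fast calcium sensor, which rose from 4.85, 4.62, 5.14 and 6.33 CPM in WT libraries to 8.63, 9.46, 13.0 and 7.39 CPM in heterozygote libraries. The groups did not overlap, with a log2 fold change of 0.88 ± 0.180 (SE; edgeR adjusted p = 0.0352). Leaving out WT library 1, 2 or 3 or heterozygote library 1 or 2 ended this call (edgeR adjusted p = 0.114, 0.0816, 0.107, 0.0615 and 0.0712), as did leaving out WT libraries 1 and 3 together (0.338), the even-numbered libraries alone (0.352), no filter on low counts (0.0778), the animal-number covariate (0.0701) and the replicate block (0.0646).

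Slc32a1, the vesicular GABA transporter of inhibitory terminals, was above WT in every heterozygote library, at 56.5, 61.1, 63.3 and 61.2 against 66.7, 64.3, 65.4 and 69.8 CPM. It did not pass (log2 fold change 0.14 ± 0.0417 SE, edgeR adjusted p = 0.103), except with spike-in scaling (edgeR adjusted p = 0.0246), which called 1368 of 17913 genes higher. The synaptotagmin gene Syt6 was next among those above WT, at 11.9, 9.54, 14.0 and 12.6 CPM across WT libraries against 14.4, 13.3, 12.4 and 17.1 CPM in heterozygotes, and did not pass (edgeR adjusted p = 0.356). Of those below WT, Apba1, the Munc18-binding adaptor Mint1, was at 265, 267, 267 and 279 CPM across WT libraries against 235, 264, 247 and 229.8 CPM in heterozygotes. The groups were apart by about 1 CPM, and the gene passed in the DESeq2 Wald test (adjusted p = 0.0429) and without heterozygote library 2 (edgeR adjusted p = 0.0322), but not with all libraries in edgeR (adjusted p = 0.0946). Stxbp5l, the second tomosyn, was at 76.0, 80.3, 76.8 and 74.5 CPM across WT libraries against 71.0, 70.0, 64.5 and 73.8 CPM in heterozygotes, without overlap (fold 0.908, edgeR adjusted p = 0.108). The vesicle membrane gene Scamp1 was at 235, 215, 238 and 236 CPM across WT libraries against 220.2, 214, 203 and 213 CPM in heterozygotes, where WT library 2 lay within the heterozygote range (fold 0.919, edgeR adjusted p = 0.127).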

How the data were processed

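The deposited values are whole-number read counts, 1 row per Ensembl gene and 1 column for each of 8 libraries. The submitters' processing notes name STAR 2.4.2a and HTSeq, beside FastQC and DESeq2, and builds NCBIM37 and mm9; which annotation was counted, and with which strand setting, is not given in the sources used here. Because the cDNA kit does not mark strand, antisense reads cannot be told apart. The 92 spike-in rows entered neither library sizes nor tests. Symbols were matched by Ensembl identifier for 32620 of 37310 genes; exonic lengths come from GENCODE M21 on GRCm38, a later build than that of the counts, so levels per kb are approximate.

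Counts were filtered with filterByExpr (minimum count 10, total 15), normalised by TMM and compared over all 17913 genes left by edgeR 4.0.16 in R 4.3.3, as a two-sided quasi-likelihood F test with robust dispersions, with Benjamini-Hochberg adjustment over all genes at 0.05. A standard error is the size of the log2 fold change over the square root of its F. Library medians and list scores used log2 CPM with a prior count of 2. DESeq2 1.42.0 and limma-voom (limma 3.58.1) were alternatives, with other scalings, filters and sample sets. The labels call the animals biological replicates, and pairs within a genotype differed by more than sampling noise (chi-square per degree of freedom 7.42 to 25.0), so none was merged. A count of 0 allowed up to 3 counts, 0.0332 to 0.0510 CPM by library, for counting error only.

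The members, lists and alternatives were chosen with earlier results of these data known. Values by library are given for members past the threshold, the 6 lowest p in each direction, members whose genotypes do not overlap and the most abundant member of each role; from the other vesicle genes, those past the threshold and the 3 lowest p in each direction. Members with a wide spread, and the marker genes printed beside a result, were picked after their values were seen. The microglia, astrocyte, oligodendrocyte and ependymal lists were also scored: of their genes 0 of 8, 0 of 8, 0 of 8 and 7 of 9 passed in edgeR, and 0, 3, 0 and 9 had an unadjusted p under 0.05.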

Additional observations from a re-analysis of the deposited data

Results flagged for a closer look

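Each member was examined in each genotype for a library that stands apart from the other 3, by the gap to its nearest neighbour as a share of the range of the 4 libraries (above Dixon's critical value for 4 samples, which chance exceeds in about 1 group in 20). Of 72 groups, 6 met this. Vamp1 was low in heterozygote library 3, at 123 CPM against 136 to 138 in the others. Rimbp2 was low in WT library 4, at 126 CPM against 139 to 142. Rab3b was high in WT library 4, at 31.6 CPM against 25.5 to 26.4, and Rab3a was high in WT library 3, at 545 CPM against 518 to 521. Bsn was low in heterozygote library 2, at 510 CPM against 524 to 525, and Syn2 was high in heterozygote library 1, at 773 CPM against 749.8 to 751; in both the other 3 libraries lay within about 1 CPM of each other.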

How the results depend on the processing

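Under 22 alternatives, 13 of the 36 members kept the sign of their difference in all of them, and 27 did so in all but spike-in scaling. The median log2 fold change of the members was 0.0203 and that of the other vesicle genes 0.0403 with spike-in scaling (mix as a covariate), a reversal that goes with a median over all genes of 0.0911; in even-numbered libraries alone the members were at -0.0479. Leaving out each library in turn gave -0.0896 to -0.0646 for the members and -0.0710 to -0.0497 for the other genes. Snap25 kept its call in 9 of 22 alternatives and Syt9 in 12. The number of members called was 2 with the DESeq2 Wald test and 0 with the non-robust fit, with a covariate for the run of animal numbers, in odd-numbered or even-numbered libraries alone and without WT libraries 1 and 3, and 0 to 1 without each library; unadjusted counts in these settings ran from 2 to 14, and over all settings from 1 (spike-in scaling) to 16 (no low-count filter). Among the other vesicle genes it was 2 with spike-in scaling and with DESeq2, 0 with no low-count filter, with the animal-number run, in even-numbered libraries and without WT libraries 1 and 3, and 0 to 3 without each library. Over all genes 535 calls became 1387 with spike-in scaling, 1185 with DESeq2, 231 with the animal-number run, 78 in even-numbered libraries, 170 without WT libraries 1 and 3 and 171 to 767 without each library. Calls did not fall in every smaller set, as the 767 came from leaving out WT library 4. The cause of the losses was not tested.

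Replicate numbers did not pair the libraries: same-numbered libraries had correlations of 0.054, 0.018, -0.208 and -0.116 in their deviations from the genotype means. With the replicate number as a block the calls were 0 members, 0 other vesicle genes and 406 genes in all, and the members' median was -0.0795. The order of levels per kb changed with the length used. 1 member, Cplx3, was at 10 CPM or less on average in WT.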
